A study of Mus musculus with 12 samples.

Results

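The interaction of N-acetylcysteine (NAC) with myocardial infarction (MI) is the part of the NAC difference that depended on the surgery. For each gene it is the difference between NAC and saline after MI, minus the same difference after sham surgery, on a log2 scale. A value of 0 means that NAC and saline differed equally under both surgeries, and a positive value means that the NAC level was relatively higher after MI. All 12 libraries entered, 3 in each of 4 groups, and 14996 of the 52336 genes in the deposited table had a mean normalized read count of at least 10 and were followed.

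Wild type mouse pups were injected daily from postnatal day 0 to day 1 with a high dose of NAC in HEPES-buffered saline, or with control saline. The next day, day 2, the left anterior descending coronary artery was occluded (MI) or a sham procedure was performed, and hearts were taken on day 3. Cardiomyocytes were isolated from pooled, digested ventricles with a selection kit, and RNA was sequenced after poly-A enrichment. The groups are called NAC MI, saline MI, NAC sham and saline sham. All of them share the injections, an operation and the cell isolation, and all NAC was given before the surgery. The number of hearts in a pool was not stated, and neither was whether libraries of a group came from separate litters, so a p-value here speaks of the variation among these isolates, which may be technical.

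NAC is a cysteine donor and thiol antioxidant that feeds glutathione synthesis and can scavenge oxidants. In the first days after birth mouse cardiomyocytes still divide and the heart can regrow muscle after injury, an ability that is lost within days as oxygen exposure and oxidative metabolism increase and the cells leave the cell cycle. Injury also brings neutrophils and macrophages into the heart, and these white cells produce oxidants of their own.

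Sequencing depth was 14353842 to 25118341 reads per library, with 19031 to 23753 genes detected. A pair of NAC libraries stood apart from their groups in macrophage and monocyte transcripts. On a list score, the mean log2(value + 1) of the listed genes in a library, the 24 macrophage and monocyte markers lay at 8.59 in NAC sham 2, close to the MI libraries, and at 5.21 in NAC MI 2, close to the sham libraries. The neutrophil score was low in NAC MI 2 (5.69, beside 8.01 and 7.30), but in NAC sham 2 (5.59) it was near that of NAC sham 1 (5.44). The endothelial score spanned 10.6 to 12.4 and the fibroblast score 10.93 to 12.005 over the 12 libraries, beside 13.0 to 14.9 for cardiomyocyte markers, so transcripts of non-muscle cells were present in the isolates. Which cells carried a difference was not tested, and in such bulk samples fewer cells of a type and less RNA per cell cannot be told apart. The sample titles carry prefixes of unstated meaning (R207 and R219 only on sham, R230 and R235 only on MI libraries, none on NAC sham 1 and 3), so prefix and surgery cannot be told apart. Transcripts of 4 Y-linked genes (Ddx3y, Eif2s3y, Kdm5d and Uty) were at 0 in NAC MI 1 and 2 and present in the other 10 libraries. Xist, which is transcribed from the inactive X chromosome of females, had 19.1, 1607 and 0 normalized reads in saline MI and 8841, 8953 and 0 in NAC MI, while sham libraries held 3344 to 8634. NAC MI 1 and 2 thus held Xist without Y-linked transcripts. Saline MI 1 and 3 and NAC MI 3 held Y-linked transcripts with little or no Xist, and saline MI 2 and the sham libraries held both. The mix of female and male hearts therefore differed among the isolates, also between NAC MI and saline MI. Its part in the results was not tested.

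No gene passed the test of the interaction. With limma and Benjamini-Hochberg adjustment over the 14996 genes, 0 genes (0%) reached an adjusted p under 0.05, and the smallest adjusted p was 0.999884. At an unadjusted p under 0.05 there were 305 genes (2.03%), of which 89 (0.593%) had a positive and 216 (1.44%) a negative interaction. That share is smaller than the 0.05 that evenly spread p-values would give in the absence of any interaction. edgeR on the recovered reads also called 0 genes and DESeq2 called 1, Gm21188, a predicted gene. A separate fit with the title prefix as a block called 17. In that fit NAC sham 2 is the only NAC sham library beside saline ones, so its sham difference rests on that library. Leaving out NAC MI 3 gave 4 calls, the Y-linked genes named above, with no other library's omission giving any.

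The values themselves centred on 0. The median interaction was 0.00 on the log2 scale, with 7515 genes (50.1%) above 0 and 7481 (49.9%) below, with 5% of genes under -1.15 and 5% over 0.72. The standard error was 0.42 for the median gene, against 0.30 for NAC against saline after MI alone. The 95% interval of the median gene reached 0.91 to either side of its estimate, which covers nearly a 2-fold difference in each direction. In 5589 genes (37.3%) the interval lay wholly within 2-fold, and in the others it reached past 2-fold on at least 1 side. In data simulated from these libraries, changes of 4 on the log2 scale were recovered in 92% (lower) and 100% (higher) of 50 genes each, and changes of 2 in 50% of 50 genes in both directions. The changed genes all had a mean over 50, no other group difference was simulated, and genes varied independently. Libraries that shift many genes together were thus not simulated, and these rates need not hold for the measured data.

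NAC against saline gave 0 called genes (0%) after MI and 0 (0%) after sham surgery in limma without library weights, with 1382 (9.22%) and 884 (5.89%) at an unadjusted p under 0.05. edgeR called 0 genes in both comparisons, and DESeq2 called 10 and 47. With quality weights per library, limma called 685 and 421. Those weights ran from 0.25 for NAC sham 2 to 4.70 for saline MI 1. Leaving out NAC sham 2 gave 80 calls after sham surgery, and leaving out NAC MI 3 gave 4 after MI. MI against sham, averaged over both treatments, called 411 genes (2.74%). Genes at a low unadjusted p for the interaction mostly differed in opposite directions under the 2 surgeries: 81 of the 89 positive ones and 200 of the 216 negative ones. The negative ones had a median NAC difference of 1.01 after sham surgery and -1.12 after MI, and the positive ones -0.43 and 0.62. These signs follow in part from selecting on the interaction and are given as a description.

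**Figure D1:**
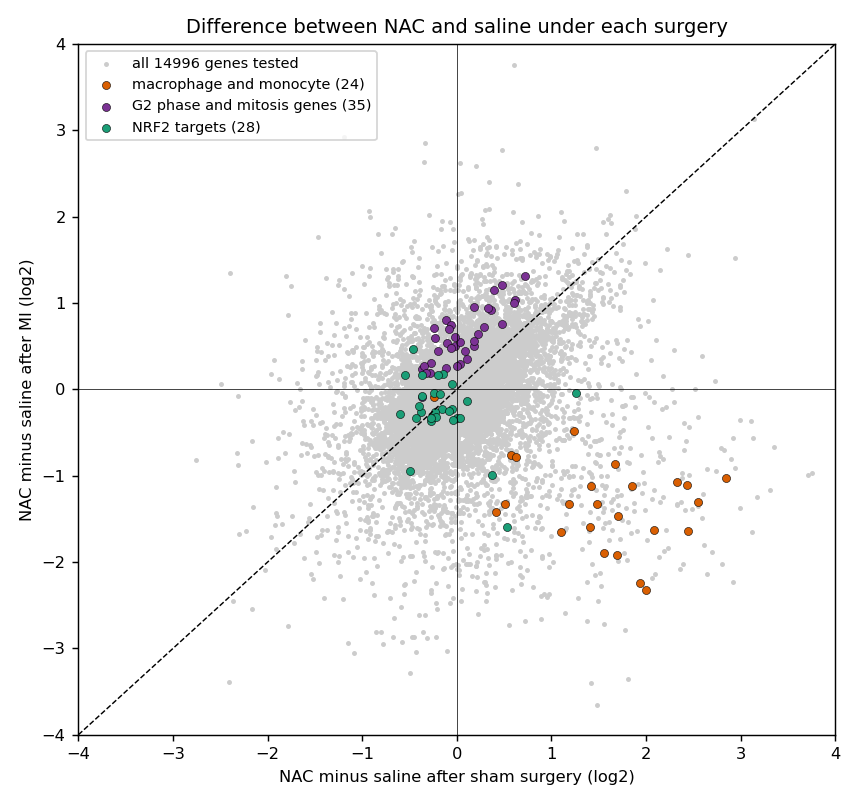
NAC minus saline after sham surgery (x axis) against NAC minus saline after MI (y axis), both as log2 differences of group means of 3 libraries, for 14996 genes in grey with 3 gene lists in colour. The dashed line marks an interaction of 0, and 8 genes lie outside the axes, which end at 4. The 35 G2 and mitosis genes all lie above the line, 23 of 24 macrophage markers lie below it, and NRF2 targets lie on both sides.

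Genes of G2 phase and mitosis had a positive interaction throughout. These genes encode the cyclins, kinases, kinesins and checkpoint proteins that take a cell from replicated DNA through division. All 35 of 35 measured members had a positive interaction, against 50.1% of all genes tested, with a median of 0.54 against 0.00 and values from 0.25 (Bub1b, a spindle checkpoint kinase) to 0.95 (Ccnb2, a mitotic cyclin). Of the 35, 10 were at an unadjusted p under 0.05, against 0.593% of all genes on the positive side, and 0 were called. Members of this and the other lists come from the same 12 libraries and can vary together. Counts of members are therefore not counts of independent observations.

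The list score showed which group differed. It was 9.42, 9.59 and 9.16 in saline sham 1, 2 and 3, and 9.38, 9.61 and 9.36 in NAC sham. It was 8.74, 8.83 and 8.93 in saline MI, and 9.37, 9.43 and 9.50 in NAC MI. The 3 saline MI libraries were the lowest of the 12, and the NAC MI libraries lay within the range of the sham libraries. The median log2 difference of MI from sham surgery was -0.57 in saline-treated pups (35 of 35 members lower; 21 at an unadjusted p under 0.05, where 4.53% of all genes were lower at that p; 0 called, where 0.86% of all genes were) and 0.01 in NAC-treated pups. NAC against saline gave a median of 0.56 after MI, with 34 of 35 members higher, and 0.01 after sham surgery, with 18 of 35 higher.

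In 23 of the 35 genes all NAC MI libraries lay above all saline MI libraries, where 8.84% of all genes did, and in 2 of the 35 the NAC sham libraries lay above the saline sham libraries, where 5.35% of all genes did. Within title prefixes, the score was higher with NAC by 0.72 in R230 (NAC MI 3 against saline MI 1 and 2). It was higher by 0.47 in R235 (NAC MI 1 and 2 against saline MI 3) and by 0.11 in R207 (NAC sham 2 against saline sham 1 and 2). Each of these differences has a single library on 1 side. Without NAC sham 2 and NAC MI 2 together the median interaction was 0.64, again with 35 of 35 members positive. Leaving out a single library gave medians of 0.45 to 0.68. All 35 members stayed positive in each such fit except without saline sham 3, where 34 did.

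**Figure D2:**
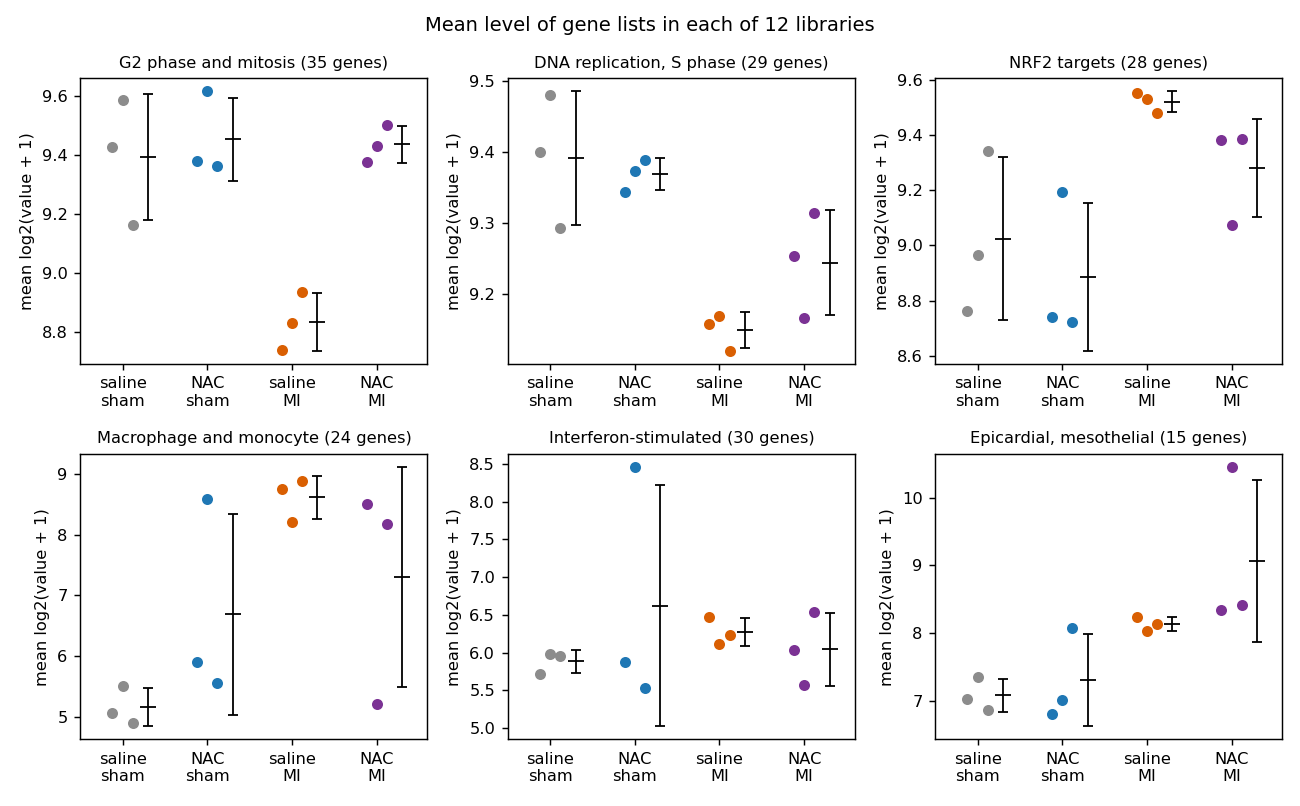
Mean log2(value + 1) over the members of 6 gene lists (y axes, each on its own scale and not starting at 0) in each of the 12 libraries, by group; points are libraries in the order 1, 2, 3 and bars are the mean ± SD of 3 libraries. In the G2 and mitosis panel the saline MI libraries (8.74 to 8.93) lie below the 9 others, while in the macrophage panel NAC sham 2 (8.59) and NAC MI 2 (5.21) lie apart from their groups.

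The promoters of these genes are shown because the list is known for a shared promoter layout, CCAAT boxes bound by NF-Y and the cell cycle homology region (CHR) bound by the DREAM and MYB-MuvB complexes. In the RefSeq promoter table (GRCm38.p6; 250 bases before to 50 after the start), 29 of the 35 genes matched, with 31 promoters. CCAAT, searched on both strands, was present in 25 of the 31 (80.6%) and in 37.4% of all 32851 promoters of this length. The CHR letters TTTGAA, on both strands, were present in 23 of 31 (74.2%) and in 17.9% of all. Both stood in 21 of 31 (67.7%), against 6.95% of all. Promoters of the S phase list, described further on, held CCAAT in 18 of 28 (64.3%) and TTTGAA in 3 (10.7%). The 3 promoters printed belong to Ccnb1 (chr13:100786437-100786736), Ccnb2 (chr9:70421505-70421804) and Aurka (chr2:172370521-172370820), all on the minus strand and written 5′ to 3′ in the direction of transcription. Capitals mark CCAAT and TTTGAA. A match describes letters only.
Ccnb1: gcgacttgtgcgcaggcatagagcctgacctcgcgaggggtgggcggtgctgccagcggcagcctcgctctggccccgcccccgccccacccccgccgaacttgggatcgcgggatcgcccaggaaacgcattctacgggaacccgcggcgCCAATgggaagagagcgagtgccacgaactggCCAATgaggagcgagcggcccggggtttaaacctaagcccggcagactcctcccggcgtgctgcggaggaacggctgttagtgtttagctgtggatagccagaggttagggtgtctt
Ccnb2: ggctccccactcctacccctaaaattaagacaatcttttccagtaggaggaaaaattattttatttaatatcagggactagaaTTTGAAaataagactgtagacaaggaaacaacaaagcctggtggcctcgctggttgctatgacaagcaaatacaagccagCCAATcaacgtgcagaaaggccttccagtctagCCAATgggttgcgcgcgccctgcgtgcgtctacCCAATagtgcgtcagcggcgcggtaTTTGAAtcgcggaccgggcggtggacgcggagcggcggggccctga
Aurka: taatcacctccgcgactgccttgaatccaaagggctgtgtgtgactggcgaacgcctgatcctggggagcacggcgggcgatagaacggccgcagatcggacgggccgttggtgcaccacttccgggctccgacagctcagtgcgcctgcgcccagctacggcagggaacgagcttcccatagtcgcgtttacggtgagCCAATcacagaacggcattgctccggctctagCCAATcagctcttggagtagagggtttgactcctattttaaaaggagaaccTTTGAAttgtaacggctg

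Ccnb1 holds 2 CCAAT boxes and no TTTGAA in this window, Ccnb2 holds 3 and 2, and Aurka holds 2 and 1.

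Ccnb1, the cyclin B1 partner of Cdk1 that starts mitosis (ENSMUSG00000041431, chromosome 13, 100778650 to 100786570 on GRCm38), had 720, 1199 and 829 normalized reads in saline sham and 765, 1050 and 706 in NAC sham. It had 556, 620 and 528 in saline MI and 915, 946 and 1117 in NAC MI. The sham groups overlapped, and after MI each NAC library was above each saline library. The interaction was 0.91 (SE 0.30, 95% interval 0.26 to 1.57), with an unadjusted p of 0.00999 and an adjusted p of 0.999884 in limma. No gene had a smaller adjusted p, so the adjusted p is not repeated for the genes that follow.

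Ccnb2, the second B-type cyclin (ENSMUSG00000032218, chromosome 9, 70407692 to 70421547), had 620, 876 and 1023 normalized reads in saline sham and 670, 893 and 566 in NAC sham. After MI it had 462, 546 and 398 with saline and 709, 812 and 760 with NAC, again without overlap. Its interaction was 0.95 (SE 0.32). Aurka, the kinase that matures the spindle poles (chromosome 2, 172356190 to 172370535), had 374, 349 and 412 in saline sham, 373, 350 and 344 in NAC sham, 271, 302 and 279 in saline MI and 393, 398 and 632 in NAC MI. The highest NAC MI library was well above the others, and the interaction was 0.79 (SE 0.29).

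Mki67, which encodes Ki-67, had an interaction of 0.39 (SE 0.57), and Top2a, the topoisomerase that untangles chromosomes, 0.28 (SE 0.41). Both values moved with single libraries: Mki67 ranged from 0.06 without saline sham 1 to 0.91 without saline sham 3, and Top2a from 0.01 without saline sham 2 to 0.68 without saline sham 3. Mki67 had 2872, 4078 and 3843 normalized reads in NAC sham and 3044, 2725 and 2295 in NAC MI, against 3703, 3022 and 1139 in saline sham and 974, 1053 and 2316 in saline MI. NAC was the higher group on average after both surgeries (log2 difference 0.61 after sham and 1.001 after MI), and the groups overlapped in both. Cdk1, the mitotic kinase itself, had group means of 1370, 1125, 916 and 1134 in order (saline sham, NAC sham, then saline MI, NAC MI) and an interaction of 0.58 (SE 0.25).

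Among the 12 genes with the smallest p on the positive side, Ccnb1, Ccnb2 and Aurka are members of the list. Other genes known from dividing cells stood with them. This choice uses the same interaction values as the list summary and is not separate support for it. Ckap2, a spindle-associated protein, had 306, 284 and 321 normalized reads in saline MI and 495, 567 and 579 in NAC MI, with 452 to 584 in the 6 sham libraries (interaction 0.71, SE 0.24). Depdc1a, also expressed in mitotic cells, had 93.1, 82.5 and 108 in saline MI against 206, 328 and 254 in NAC MI (interaction 1.14, SE 0.38). Mtfr2, a mitochondrial fission regulator (chromosome 10, 20347770 to 20361304), had the smallest p of this side (0.0025). Its values were 81.9, 106 and 72.6 in saline sham, 64.3, 107 and 86.4 in NAC sham, 39.3, 28.2 and 48.7 in saline MI and 96.7, 172 and 120 in NAC MI, an interaction of 1.74 (SE 0.47). In all 3 genes the saline MI libraries were the lowest of the 12, which follows in part from choosing genes by the interaction p. The rest of these genes with the smallest p were Abcb1b, Pex3, Thumpd2, Pter, Bdh1 and Rgs9, which are not members of the list.

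DNA replication and S phase genes, which act one step earlier in the cycle, had a smaller interaction. Of 29 measured members 20 were positive and 9 negative, with a median of 0.13, and 1 was at an unadjusted p under 0.05. That gene was Tk1, thymidine kinase, with 901, 894 and 920 normalized reads in saline sham, 651, 740 and 754 in NAC sham, 697, 660 and 518 in saline MI and 610, 861 and 723 in NAC MI (interaction 0.57, SE 0.25). Tk1 was lower with NAC after sham surgery in all libraries and overlapped after MI. The replication primase Prim1 had an interaction of 0.53 (SE 0.28) and the licensing factor Cdc6 of 0.50 (SE 0.29). The list score was 9.29 to 9.48 in saline sham, 9.34 to 9.39 in NAC sham, 9.12 to 9.17 in saline MI and 9.17 to 9.31 in NAC MI. CDK inhibitors and p53 targets, which oppose the cycle, had a median of 0.14 with 13 of 23 positive. Cdkn1a, the p21 inhibitor, had an interaction of 0.38 (SE 0.55).

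**Figure D3:**
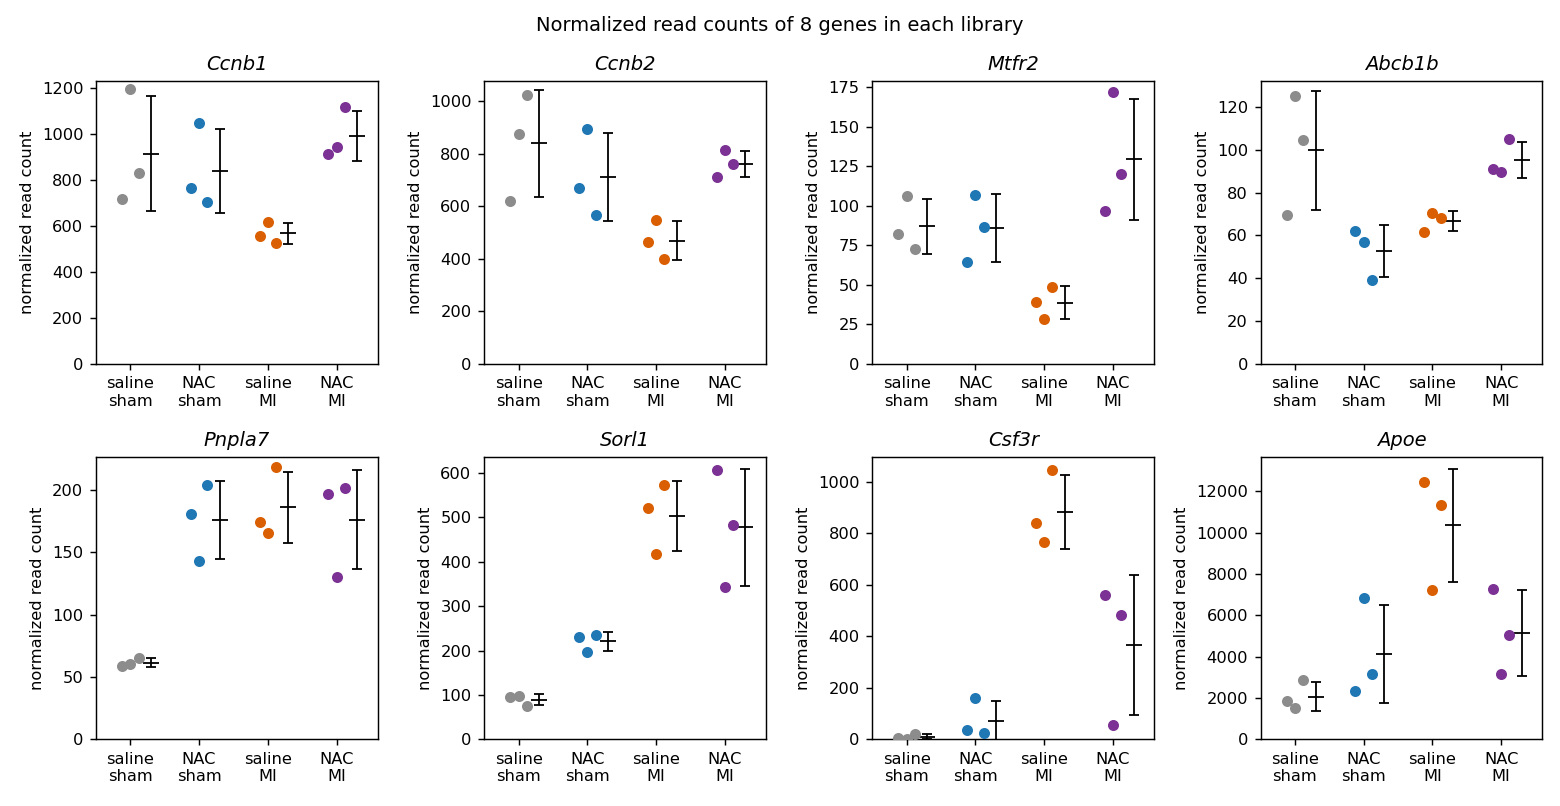
Normalized read counts (y axes from 0) of 8 genes in each of 12 libraries by group; points are libraries in the order 1, 2, 3 and bars are the mean ± SD of 3 libraries. For Ccnb1, Ccnb2 and Mtfr2 the saline MI libraries are lowest, for Pnpla7 the saline sham libraries are lowest (58.7 to 65.5), and for Csf3r and Apoe NAC MI 2 is the lowest MI library.

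On the negative side the gene with the smallest p of all was Pnpla7, a lysophospholipase of the patatin-like family (ENSMUSG00000036833, chromosome 2, 24976033 to 25054057). It had 58.7, 60.5 and 65.5 normalized reads in saline sham and 180, 143 and 204 in NAC sham, 174, 165 and 218 in saline MI and 196, 130 and 201 in NAC MI. The saline sham libraries lay far below the 9 others, which overlapped each other. NAC alone and MI alone were each above saline sham (log2 difference 1.48 and 1.57), and NAC differed by -0.09 from saline after MI. The interaction was -1.58 (SE 0.35, unadjusted p 0.000619 in limma) and ranged from -1.72 to -1.35 over all other settings and omitted libraries.

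Sorl1, a sorting receptor of the endosome (chromosome 9, 41964720 to 42124297), had 95.7, 98.2 and 74.97 normalized reads in saline sham, 230, 197 and 235.2 in NAC sham, 520, 418 and 572 in saline MI and 607, 342 and 483 in NAC MI. Its level with NAC was higher in every sham library and overlapped with saline after MI, an interaction of -1.40 (SE 0.33). Sema4d, a semaphorin of immune and endothelial cells, resembled Pnpla7, with 316 to 320 in saline sham, 547 to 651 in NAC sham, 501 to 700 in saline MI and 408 to 679 in NAC MI (interaction -1.02, SE 0.30). Stxbp2, a syntaxin-binding protein of granule release, had an interaction of -1.38 (SE 0.39). In all 4 genes each NAC sham library, and not NAC sham 2 alone, was above each saline sham library.

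Markers of macrophages and monocytes had the most negative list median, -2.99, with 23 of 24 members negative and 12 at an unadjusted p under 0.05, against 1.44% of all genes on the negative side, and 0 called. The median log2 difference of NAC from saline was 1.61 after sham surgery and -1.33 after MI. The list score was 5.06, 5.50 and 4.89 in saline sham and 5.90, 8.59 and 5.56 in NAC sham. It was 8.75, 8.20 and 8.87 in saline MI and 8.50, 5.21 and 8.18 in NAC MI. The 2 libraries that stood apart, NAC sham 2 and NAC MI 2, moved the interaction in the same direction. Without both, the median was -0.89. With quality weights per library it was -1.40, and with the title prefix as a block, where NAC sham 2 is the only NAC sham library beside saline ones, -4.67. Within prefixes, in the libraries named for the G2 and mitosis score, the macrophage score differed by 3.31 in R207, by -0.30 in R230 and by -2.02 in R235.

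Members differed in how far NAC sham 2 and NAC MI 2 stood apart. In 7 of the 24 all NAC sham libraries lay above all saline sham libraries, where 5.35% of all genes did. In 3 of the 24 all NAC MI libraries lay below all saline MI libraries, where 11.5% of all genes did. Aif1, the macrophage protein Iba1, had 12.9, 335 and 24.1 normalized reads in NAC sham and 47.9, 5.05 and 24.9 in NAC MI, beside 8.33 to 15.2 in saline sham and 59.4 to 132 in saline MI (interaction -4.33, SE 1.43). Adgre1, which encodes the F4/80 antigen, had 111, 3624 and 42.8 in NAC sham and 516, 22.7 and 553 in NAC MI, and its SE was 1.95 for an interaction of -3.85, which was -1.95 without NAC sham 2. C1qa, a complement component made by macrophages, had an interaction of -2.76 (SE 1.16) and the fractalkine receptor gene Cx3cr1 of -2.51 (SE 0.84), and without NAC MI 2 these were -1.66 and -1.60. Lyve1, a marker of resident macrophages and lymphatic vessels, was the member that was not negative (0.15).

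Neutrophil markers were negative in 17 of 17 measured members, with a median of -1.72 and 3 at an unadjusted p under 0.05. Without NAC MI 2 the median was -0.66, without NAC sham 2 and NAC MI 2 together -0.50, and with DESeq2 it was -0.67. Csf3r, which encodes the receptor through which G-CSF drives neutrophil output (chromosome 4, 126024550 to 126044440), had 5.80, 2.98 and 22.6 normalized reads in saline sham, 35.1, 160 and 24.1 in NAC sham, 841, 767 and 1046 in saline MI and 562, 56.8 and 484 in NAC MI. All NAC libraries were above saline after sham surgery and below saline after MI. The interaction was -4.42 (SE 1.25), and -2.55 without the 2 libraries. Camp, a granule antimicrobial peptide, had an interaction of -2.93 (SE 0.90), and S100a9, a calprotectin subunit, of -1.25 (SE 1.02), which was -0.33 without saline sham 1.

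The genes of the phagocyte oxidase, through which these cells release superoxide, had the same sign. Oxidant producing genes had a median of -0.53 with 15 of 18 negative and 3 at an unadjusted p under 0.05. Those 3 were the oxidase subunit genes Cybb (-3.47, SE 1.49) and Ncf1 (-2.93, SE 1.22) and the GTPase gene Rac2 (-2.43, SE 1.08). Without NAC sham 2 these values were -2.08, -1.85 and -1.33. Cybb had 97.1, 1539 and 72.2 normalized reads in NAC sham and 419, 34.1 and 458 in NAC MI, and Rac2 77.2, 758 and 76.6 and then 559, 121 and 399, so in both genes NAC sham 2 and NAC MI 2 stood apart from their groups. Ncf1 had 26.9, 297 and 34.7 normalized reads in NAC sham and 401, 49.3 and 337 in NAC MI, against 13.1 to 35.7 in saline sham and 413 to 596 in saline MI. Apart from NAC sham 2 its sham libraries overlapped, while each NAC MI library was below each saline MI library.

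Inflammatory cytokine and chemokine genes had a median of -0.73 (27 of 37 negative, 0 at an unadjusted p under 0.05), -0.0069 without NAC sham 2 and 0.45 without NAC sham 2 and NAC MI 2. Interferon-stimulated genes had a median of -0.88 (22 of 30 negative, 1 at an unadjusted p under 0.05). In NAC sham 2 their score reached 8.46, and it stayed between 5.53 and 6.54 in the 11 other libraries, and without NAC sham 2 alone the median was 0.11. Ifi209, an interferon-inducible gene, had 12.9, 547 and 10.7 normalized reads in NAC sham and at most 54.6 in any other group. Its interaction was -5.44 (SE 1.65). It was called only with the title prefix as a block, where NAC sham 2 is the only NAC sham library beside saline ones.

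Apoe, which carries lipid out of macrophages and other cells (ENSMUSG00000002985, chromosome 7, 19696109 to 19699188), had 1839, 1504 and 2857 normalized reads in saline sham, 2363, 6824 and 3162 in NAC sham, 12430, 7245 and 11356 in saline MI and 7294, 3140 and 5069 in NAC MI. Its NAC and saline libraries overlapped under both surgeries, after MI only between 7245 and 7294. The interaction was -1.94 (SE 0.57), and -1.18 without NAC sham 2 and NAC MI 2. The macrophage score was high and low in the same 2 libraries, and its part in the Apoe value was not tested.

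Genes that differed between MI and sham libraries leaned to negative interactions. The average of the MI effect over both treatments is a contrast that uses the 4 groups in another combination, and it called 411 of 14996 genes (2.74%). Of these, 319 (2.13%) were higher with MI and 92 (0.613%) lower. That count ranged from 133 without saline MI 1 to 1563 without saline sham 3. Of the 319 higher genes, 217 (68.0%) had a negative interaction, against 49.9% of all genes, with a median of -0.36. Their median MI difference was 2.08 after saline and 1.47 after NAC. Of the 319, 318 were higher after MI in both arms, which follows largely from selecting on the average of these arms. Among all 14996 genes, 10470 had the same sign in both arms. The median interaction was -1.38 in the 27 that belong to the macrophage, neutrophil, lymphocyte or cytokine lists, and -0.32 in the 292 others, of which 194 were negative. These lists hold only part of the genes of white cells. The 292 include the phagocyte oxidase gene Ncf1 (-2.93), so the split does not set white cell genes apart from all others. Without NAC sham 2 and NAC MI 2 the median over the 319 was -0.20, with 206 negative, and with the title prefix as a block -0.57.

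The 92 genes lower after MI had a median interaction of -0.17 (66 negative) and a median MI difference of -0.89 after saline and -0.93 after NAC. This sign did not hold up: the median was 0.26 with quality weights per library, 0.18 without NAC sham 2 and NAC MI 2 together, 0.0014 without NAC sham 2 and 0.0137 without NAC MI 2. An exception among the higher genes was Olr1, the receptor for oxidized low-density lipoprotein. It had 56.1, 39.4 and 58.5 normalized reads in saline MI and 144, 197 and 85.9 in NAC MI, with 5.85 to 33.7 in the sham libraries, an interaction of 2.01 (SE 0.79). Olr1 was highest in NAC MI 2, where the macrophage score was low and the epicardial score high, and the part of either was not tested.

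**Figure D4:**
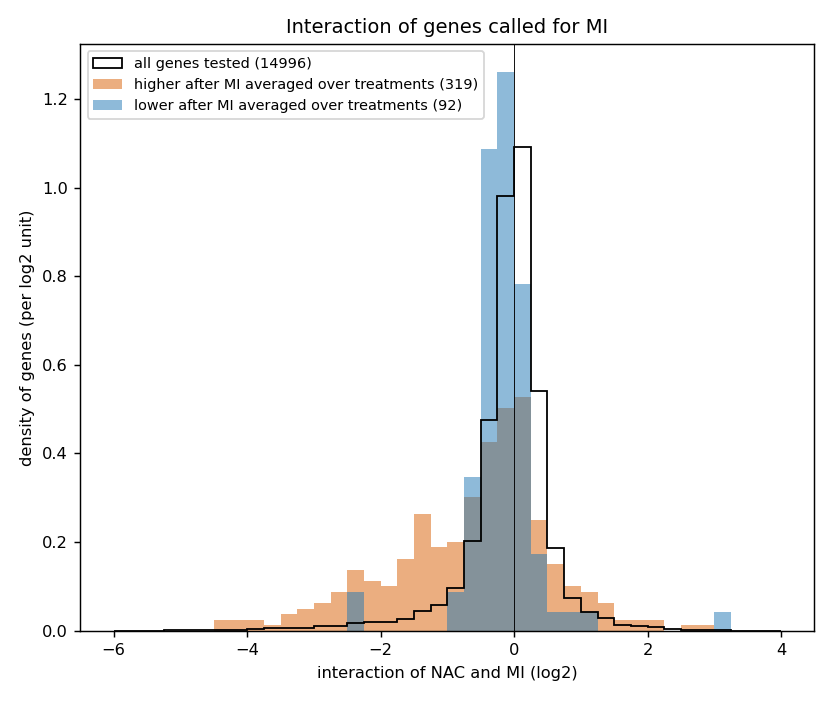
Distribution of the interaction (x axis, log2, values beyond -6 or 4 placed in the end bins) as a density of genes (y axis, bins of 0.25) for all 14996 genes, 319 genes called higher and 92 called lower after MI averaged over treatments. The genes higher after MI have a longer left side (median -0.36) than all genes (median 0.00).

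Lists of thiol and oxidant defence genes had medians near 0. Targets of NRF2, the transcription factor that senses electrophiles and oxidants through KEAP1, had a median of -0.05, with 13 of 28 measured members positive. Genes of cysteine, glutathione and thioredoxin metabolism, the pathways that NAC feeds, had a median of 0.09 with 22 of 34 positive and 0 at an unadjusted p under 0.05. Quality weights (-0.14) and the omission of saline sham 3 (-0.13) turned the sign of the second list. The NRF2 target score was 9.48 to 9.55 in saline MI and 9.07 to 9.39 in NAC MI, and 8.76 to 9.34 and 8.72 to 9.19 in saline sham and NAC sham. In 8 of 28 NRF2 targets the NAC MI libraries all lay below the saline MI libraries (11.5% of all genes did), and in 0 of 28 did the sham libraries (4.5% of all genes did). That contrast of counts was not tested as a difference.

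Single members had wide errors. Hmox1, heme oxygenase 1 (chromosome 8, 75093621 to 75100589), had 234, 1798 and 136 normalized reads in NAC sham and 1175, 210 and 806 in NAC MI, beside 294, 237 and 378 in saline sham and 1187, 983 and 1338 in saline MI. Its extremes fell on NAC sham 2 and NAC MI 2, as for the macrophage score. The interaction was -1.36 (SE 1.10), and 0.48 without these libraries. Osgin1, another NRF2 target, had the only unadjusted p under 0.05 of the list (-2.12, SE 0.98), and its interaction was -1.33 without NAC MI 2. Gclc, the catalytic subunit of the first enzyme of glutathione synthesis, had 0.32 (SE 0.40), Txnrd1, thioredoxin reductase, 0.12 (SE 0.26), and the mitochondrial superoxide dismutase Sod2 0.11 (SE 0.37). For Txnrd1 the 95% interval of -0.45 to 0.69 lay within 2-fold.

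Slc7a11, the cystine importer, had an interaction of -1.30 (SE 1.03), and Nqo1, a quinone reductase, of 0.11 (SE 0.56). Chac1, which degrades glutathione and is a target of ATF4, had 18.1, 35.7 and 28.6 normalized reads in saline sham, 1.17, 22.8 and 8.91 in NAC sham, 13.5, 1.49 and 9.75 in saline MI and 20.6, 31.6 and 2.26 in NAC MI. Its interaction of 2.64 came with an SE of 1.48, and the groups overlapped. The ATF4 list as a whole had a median of 0.11 with 17 of 28 positive, and 1 member at an unadjusted p under 0.05, Psat1, an enzyme of serine synthesis (0.65, SE 0.27).

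No measured member of the cardiac stress, sarcomere or calcium handling lists was at an unadjusted p under 0.05. Fetal and stress genes, which the injured heart re-expresses, had a median of -0.15 with 11 of 19 negative, and the sign was not stable: the median ranged from -0.57 without NAC MI 2 to 0.17 without NAC sham 3. Sprr1a, a stress-induced small proline-rich protein, had at most 2.38 normalized reads in any sham library (0 reads in NAC sham), 537, 481 and 283 in saline MI and 328, 681 and 562 in NAC MI. Its MI groups overlapped, and the fitted interaction (0.85, SE 0.77) depends on the pseudocount because of the sham zeros. The natriuretic peptide genes Nppa and Nppb had -0.38 (SE 0.93) and -0.32 (SE 0.61). Nppa had 806, 1790 and 332 in NAC MI against 537, 391 and 287 in saline MI, and 106, 70.1 and 420 in NAC sham against 37.7, 49.6 and 92.8 in saline sham.

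Acta1, skeletal actin, had an interaction of 0.68 (SE 0.39). It was lower with NAC in all sham libraries, with 1374, 815 and 1278 normalized reads against 2756, 1511 and 1867, and overlapped after MI, with 4516, 6610 and 3851 against 6056, 5555 and 4495. The slow myosin gene Myh7 had -1.16 (SE 0.76) and Myh6 0.04 (SE 0.74). Sarcomere genes had a median of 0.06 (15 of 22 positive), and calcium handling and channel genes of -0.24 (18 of 22 negative). The sarcomere median was 0.91 with the title prefix as a block and -0.61 without NAC sham 2 and NAC MI 2, and the calcium median 0.56 and -1.13 in the same settings. Spp1, the matrix cytokine osteopontin, had -2.16 (SE 1.84), with 230 in NAC MI 2 against 4723 and 5773 in the other NAC MI libraries.

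Epicardial and mesothelial markers had the most positive list median, 0.88, with 12 of 15 positive and 0 at an unadjusted p under 0.05. Their score was 8.34, 10.5 and 8.41 in NAC MI against 8.03 to 8.23 in saline MI, 6.81 to 8.08 in NAC sham and 6.86 to 7.35 in saline sham. Krt8, a keratin of the epicardium, had 419, 1742 and 596 normalized reads in NAC MI, while saline MI had 599, 445 and 365 (interaction 1.59, SE 0.81), and the uroplakin gene Upk1b 369, 2176 and 525 against 320, 197 and 214 (1.41, SE 0.77). NAC MI 2 was the high library in both, and without it the interactions were 0.99 and 0.64. Without NAC MI 2 the list median was 0.15, and without NAC sham 2 as well it was -0.19.

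**Figure D5:**
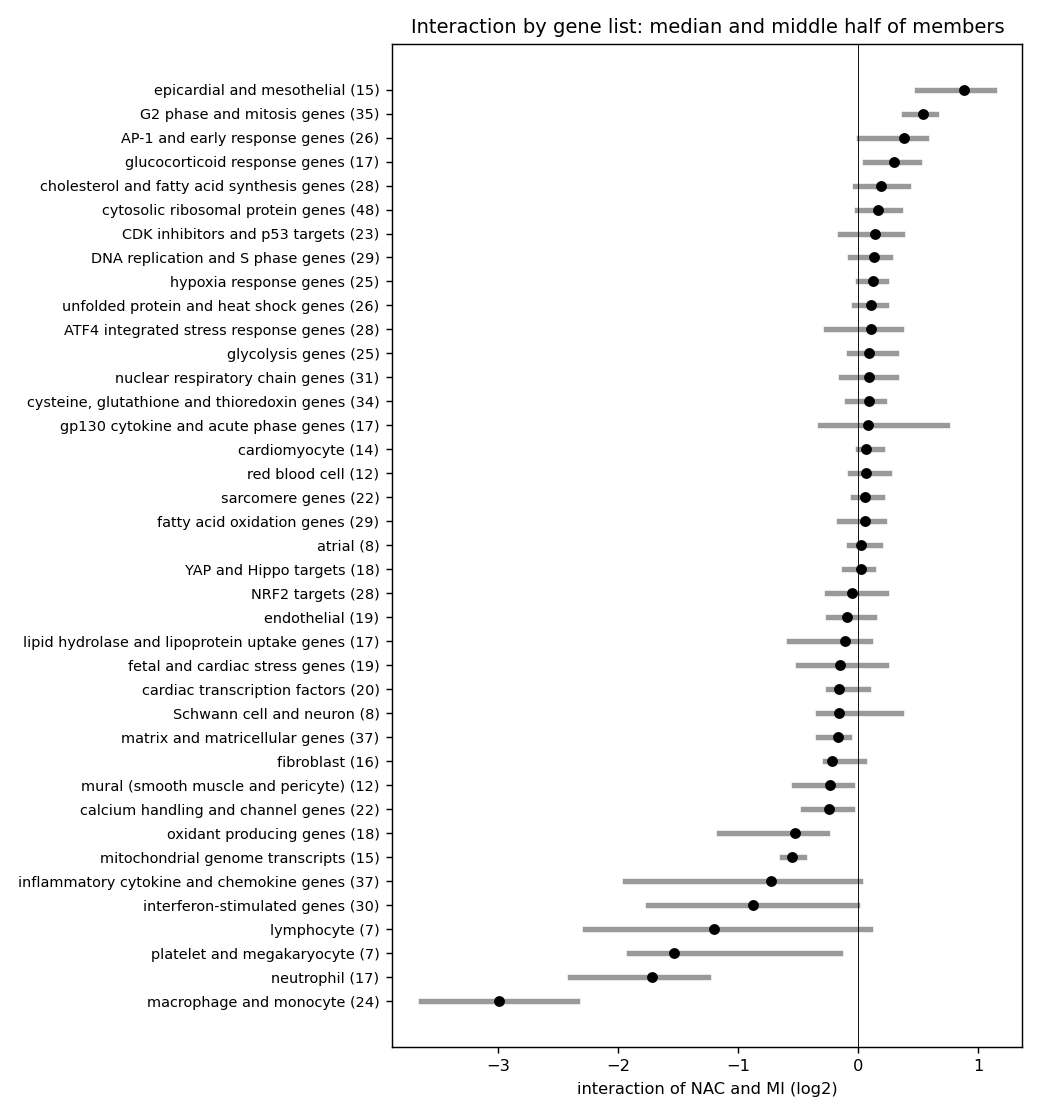
Interaction (x axis, log2) of the members of 39 gene lists (y axis, measured members in parentheses), with points at the median and bars over the middle 50% of members. G2 and mitosis genes (median 0.54) lie wholly above 0 over this range and macrophage markers (median -2.99) wholly below it, while most other medians lie within 0.3 of 0.

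Each of the other lists had at most 2 members at an unadjusted p under 0.05, and 0 members were called in any. AP-1 and early response genes had a median of 0.38 with 19 of 26 positive. The NAC sham libraries scored 8.43, 11.0 and 8.68 and the saline sham libraries 10.2 to 10.5, and the median was 1.40 without NAC sham 2 and NAC MI 2 and -0.83 with the title prefix as a block. Fosb alone had 239, 11171 and 339 normalized reads in NAC sham. Cholesterol and fatty acid synthesis genes had a median of 0.19 (19 of 28 positive) and cytosolic ribosomal protein genes 0.17 (35 of 48 positive), which was -0.23 with quality weights and -0.21 without saline sham 3. Transcripts of the mitochondrial genome had a median of -0.55 with 14 of 15 negative, but ranged from -1.12 without saline sham 3 to -0.03 without saline sham 1, in libraries whose mitochondrial share of reads ranged from 7.65% to 30.2%. Glycolysis (0.09), hypoxia response (0.13), fatty acid oxidation (0.06), nuclear respiratory chain (0.09), unfolded protein (0.11), YAP and Hippo (0.02) and cardiomyocyte marker (0.07) lists had medians close to the 0.00 of all genes.

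Genes whose libraries separated in opposite directions under the 2 surgeries were few. In 6 genes (0.04%) all NAC libraries lay above saline after MI and below saline after sham surgery, and in 15 (0.1%) the reverse held, whereas 183 (1.22%) and 210 (1.4%) separated upward and downward under both surgeries. Among the 6 were Abcb1b, a drug efflux pump, and Cdca8, a subunit of the chromosomal passenger complex in mitosis. Abcb1b (chromosome 5, 8798147 to 8866315) had 69.6, 125 and 105 normalized reads in saline sham, 62.0, 56.9 and 39.2 in NAC sham, 61.7, 70.6 and 68.2 in saline MI and 91.0, 89.7 and 105 in NAC MI (interaction 1.40, SE 0.42). Cdca8 had 569 to 631, 483 to 560, 428 to 525 and 556 to 662 in the same order of groups (interaction 0.55, SE 0.23). Among the 15 were Csf3r, described above, Ccdc88b, a myeloid and lymphoid cytoskeletal linker (-3.77, SE 1.09), and Psd4, a guanine exchange factor for ARF6 (-2.19, SE 0.65). Ccdc88b separated after sham surgery only by 26.90 normalized reads in NAC sham 1 against 26.82 in saline sham 1. Its values in NAC sham 2 (121) and NAC MI 2 (15.2) stood apart from their groups. For Psd4, NAC MI 2 was the lowest NAC MI library (46.7). None of the 21 was called. Leaving out any library gave 35 to 124 such genes, since fewer libraries then have to separate.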

How the data were processed

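RNA from 12 cardiomyocyte isolates was sequenced, 3 per group. The deposited normalized values (signal) are gene read counts that the authors divided by a size factor per library. Multiplied back, 100% of the values came within 0.01 of whole reads. The tools STAR 2.7.10a and DESeq2 1.44.0 and the build mm10 are given in the submitters' processing notes; the gene counter, annotation and strand setting are not given in the sources used here, so overlapping and antisense genes may share reads. Symbols and positions came from GENCODE M21 (52079 identifiers matched). Of 52336 genes, 21590 were at 0 in every library, and genes with a mean under 10 were left out.

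The values were transformed as log2(value + 1), which understates changes of low genes, and tested two-sided in limma 3.58.1 (R 4.3.3) with a trended prior variance and 1 mean per group (8 residual degrees of freedom). P-values were adjusted by Benjamini-Hochberg over 14996 genes, and a gene was called at an adjusted p under 0.05. No test of a list was made. Alternatives used edgeR 4.0.16 and DESeq2 1.42.0 on recovered reads, other scalings, filters and pseudocounts, library quality weights, the title prefix as a block, and omitted libraries. On simulated data with 4 sizes of change, 50 genes each, 12 false calls were made.

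The comparison, the 39 gene lists and the named genes were chosen with earlier results of these data known. The rule for named genes took the 12 smallest interaction p in each direction among named genes with a mean of at least 50 in the highest group, 4 genes of opposite separation per direction, 3 per list, 3 per direction among genes called for MI and a set list of cardiac, cell cycle and redox genes; values are given for a part of them. Y-linked genes, Xist, Gm21188, Lyve1, Bub1b and the flagged genes outside the rule were named after their values were seen.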

Additional observations from a re-analysis of the deposited data

Results flagged for a closer look

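In 21 genes every NAC library differed from every saline library in one direction after MI and in the opposite direction after sham surgery. Separation by 3 against 3 in both surgeries was found in 0.04% (higher after MI) and 0.1% (lower after MI) of the 14996 genes. In a single surgery, NAC lay above saline in 8.84% (MI) and 5.35% (sham) of genes, and below it in 11.5% and 4.5%. If the surgeries were independent, these shares would give more genes of opposite separation than were seen. The interaction term of limma tests the difference itself, and none of the 21 passed after adjustment.

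With NAC above saline after MI and below it after sham surgery, the interactions on the log2 scale were 1.40 for Abcb1b, 2.12 for Mok, 1.25 for Zswim3, 0.55 for Cdca8, 0.38 for Snx24 and 0.29 for Ythdf2. With the reverse, the genes tied to white blood cells had interactions of -4.42 (Csf3r), -3.77 (Ccdc88b), -2.37 (Fcrls, a receptor-like gene of microglia and macrophages) and -3.28 (C5ar1, the complement C5a receptor). For C5ar1 the NAC sham libraries held 28.1, 497 and 29.4 normalized reads and the NAC MI libraries 434, 51.8 and 341. NAC sham 2 and NAC MI 2 thus stood apart as for the macrophage score. For Fcrls NAC MI 2 held 11.4, beside 153 and 127 in NAC MI 1 and 3. The remaining values were -2.19 for Psd4, -1.55 for Dennd2d, -2.33 for Cntfr, -0.91 for Tstd2, -1.75 for Zfp454, -0.42 for Trafd1 and -0.36 for Hunk. Of transcripts with clone or predicted names, A730056A06Rik had -4.82, Gm15283 -2.37, Gm33321 -3.35 and Gm43860 -3.40. A730056A06Rik was at 0 in all NAC MI libraries and at a mean of 20.4 in NAC sham, so its fitted value depends on the pseudocount.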

How the results depend on the processing

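No paired analysis was possible because the labels give no replicate number that pairs libraries; the title prefix, which part of the NAC and saline libraries share within a surgery, was used as a block instead. No prefix holds both surgeries, so the MI average could not be fitted with the prefix as a block. Genes called for the interaction numbered 1 in DESeq2, 17 with the prefix block and 0 to 4 with a library left out. For NAC after MI they numbered 10 in DESeq2, 685 with quality weights and 0 to 4 with a library left out. For NAC after sham surgery there were 47 in DESeq2, 421 with weights, 52 with the block, 278 without NAC sham 2 and NAC MI 2, and 0 to 80 with 1 library left out. For NAC averaged over surgeries there were 0 in limma, and 432, 2021, 6, 167 and 0 to 250 in these settings. For the MI average there were 1218 in DESeq2, 4187 with weights, 798 without the 2 libraries and 133 to 1563 with 1 left out; the count left the range of 1.5 times without NAC MI 1 (272), NAC sham 1 (218), saline MI 1 (133), 2 (218) or 3 (232), and saline sham 1 (200) or 3 (1563). Opposite separation held in 51 genes with no filter, 13 at a mean of at least 50, 227 without the 2 libraries and 35 to 124 with 1 left out. The macrophage median was -1.40 with weights, -4.67 with the block, -0.89 without the 2 libraries and -3.58 to -1.99 with 1 left out. In the block fit NAC sham 2 is the only NAC sham library beside saline ones, so its sham difference rests on that library. The cause of these shifts was not tested.

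Of 72 genes followed, 60 kept the sign of the interaction in every setting, among them every G2 and mitosis gene followed. The sign turned with quality weights for Hmox1 (0.12), Nqo1 (-0.39), Sod2 (-0.15), Sprr1a (-0.13), Spp1 (0.24) and the genes lower after MI (median 0.26). It turned without the 2 libraries for Hmox1 (0.48), Nqo1 (-0.20), Sod2 (-0.10), Myh6 (-0.70), Spp1 (0.99) and the genes lower after MI (0.18). It turned with the prefix block for Txnrd1 (-0.0024), Nppa (0.12), Myh7 (0.66), Fosb (-0.33) and Cdkn1a (-0.42). With single libraries left out the range spanned 0, from -0.25 to 0.50 for Nqo1, -0.0119 to 0.27 for Txnrd1, -0.16 to 0.31 for Sod2, -0.97 to 0.38 for Nppa, -0.83 to 0.094 for Nppb, -0.43 to 0.33 for Myh6 and -0.25 to 0.0137 for the genes lower after MI. Depth limits genes with few reads, such as Chac1 and Ifi209, and 3 libraries a group limit all intervals.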

Other observations

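Some genes with small unadjusted p on the positive side differed mainly among the sham libraries. Bdh1, the mitochondrial dehydrogenase of ketone bodies, had 43.5, 36.7 and 23.8 normalized reads in saline sham and 11.7, 12.3 and 20.5 in NAC sham, while its MI groups overlapped (interaction 1.80, SE 0.64). Pter, a phosphotriesterase-related gene, had 190, 174 and 263 in saline sham and 111, 123 and 129 in NAC sham, against 164, 168 and 193 in saline MI and 174, 237 and 188 in NAC MI (0.94, SE 0.32). Thumpd2 had 81.2, 109 and 142 in saline sham and 55.0, 51.7 and 60.6 in NAC sham (1.29, SE 0.43). In these 3 genes each NAC sham library was below each saline sham library and the MI groups overlapped.

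Pex3, which inserts proteins into the peroxisome membrane, differed instead after MI, with 240, 183 and 203 normalized reads in saline MI and 309, 403 and 363 in NAC MI, while its sham libraries overlapped between 242 and 346 (0.90, SE 0.30). Its groups stood in the order seen for Ccnb1. Lymphocyte and platelet markers had medians of -1.20 (5 of 7 negative) and -1.54 (5 of 7 negative), and -0.06 and -0.44 without NAC MI 2 alone, and -0.03 and 0.06 without NAC sham 2 as well. Cpt1b, the muscle carnitine palmitoyltransferase, had 31.9, 2.98 and 3.57 in saline sham, 44.4, 9.63 and 103 in NAC sham, 34.8, 34.9 and 25.3 in saline MI and 25.3, 21.5 and 0 in NAC MI (-4.08, SE 1.73). Its values varied widely within both sham groups, and no other member of the fatty acid oxidation list was at an unadjusted p under 0.05.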
